A study of Mus musculus with 8 samples.

Results

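The 9 transcripts described here encode the receptors for type I and type II interferon (Ifnar1, Ifnar2, Ifngr1 and Ifngr2), the Janus kinases that sit on them (Jak1, Jak2 and Tyk2) and the feedback inhibitors Socs1 and Socs3. They were taken by gene name from a deposited table of 30445 genes, and each name matched 1 row. The table covers 8 libraries of mouse heart RNA, all from C57 mice and all taken 8 weeks after surgery for transverse aortic constriction (TAC), in which a band around the aorta makes the left ventricle pump against a raised pressure. By their titles, 4 libraries are Mertk knockdown and 4 are wildtype, while the library names of the 4 knockdown samples read KO. The means of lowering Mertk, the cells it was lowered in, the age of the mice and whether a replicate is 1 mouse are not stated in the labels, so p-values measure the spread between these libraries, which may be technical in part. No unoperated heart was analysed here. The series title ties the macrophage receptor MERTK to the type I interferon response of the overloaded heart, and the question here is whether the transcripts that receive and damp the interferon signal differed between the groups.

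Type I interferons bind a pair of receptor chains, IFNAR1 and IFNAR2, which bring together the kinases TYK2 and JAK1. Interferon-gamma binds IFNGR1, which pairs with IFNGR2 and uses JAK1 and JAK2. The activated kinases phosphorylate STAT proteins, which enter the nucleus and switch on interferon-stimulated genes. SOCS1 and SOCS3 are among the genes that cytokines switch on through STATs, and their products bind and inhibit the receptor complexes. SOCS1 acts mainly on interferon receptors, and SOCS3 mainly on receptors that share the gp130 chain, which the heart uses for interleukin-6 type cytokines.

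Total counts were 63378755 to 68762911 in the labelled knockdown libraries and 59287621 to 71571173 in wildtype. Mertk itself was measured first. The labelled knockdown group was not below wildtype, at 11.9 ± 0.951 CPM (counts relative to the TMM-scaled library total) against 11.1 ± 0.87 CPM in wildtype (SD, n = 4 each; log2 fold change 0.10, SE 0.11, edgeR adjusted p = 0.766), so higher and lower refer below to the groups as labelled. Heart muscle markers were abundant in all libraries: 10 ventricular cardiomyocyte markers summed to 54759 to 61986 CPM in the labelled knockdown libraries and 39732 to 52668 CPM in wildtype. The 15 hepatocyte markers, which do not belong to heart tissue, summed to 194 to 264 CPM in the 4 labelled knockdown libraries. Wildtype was split, with 259 CPM in replicate 1 and 9.84 to 17.4 CPM in the other 3. Each transcript's value among the 5 libraries with hepatocyte transcripts is given below. Those libraries hold a single wildtype library, which is assumed to vary like the others, and the part of the hepatocyte RNA in the other values was not tested.

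All 9 transcripts passed the filter on low counts, and 0 of 9 were called between the groups by edgeR's quasi-likelihood test at an adjusted p under 0.05, where 0.647% of the 17787 tested genes were called. DESeq2 also called 0 of 9, against 4.17% of the genes for which it gave an adjusted p (1.86% higher and 2.32% lower). At an unadjusted p under 0.05 there were 4 of 9, against 12.4% of all tested genes. Ifngr2 and Jak1 were on the higher side (background 6.11%), and Ifngr1 and Socs3 on the lower side (background 6.32%), in the labelled knockdown libraries. For 1 of the 9, Ifngr2, every labelled knockdown value lay beyond every wildtype value, where 8.07% of all tested genes did not overlap (4.18% higher and 3.9% lower). The median log2 fold change was 0.01 over the 9 transcripts and −0.00071 over all tested genes.

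**Figure D1:**
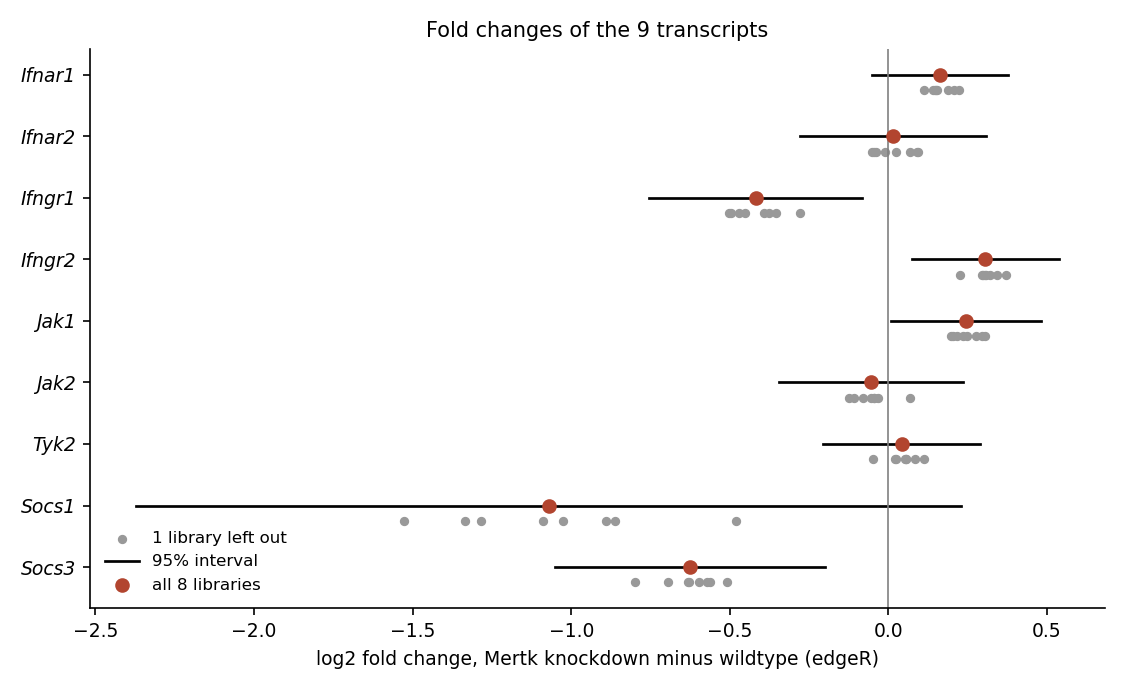
Log2 fold changes of the 9 transcripts, Mertk knockdown minus wildtype, with the 95% interval of the edgeR fit (black lines) and the values with 1 library left out (grey points). The intervals of Socs3, Ifngr1, Ifngr2 and Jak1 lay to one side of 0, Socs1 had the widest interval, and 0 of the 9 passed after adjustment over all genes.

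The chains of the type I receptor did not pass the test. Ifnar1 (ENSMUSG00000022967, chromosome 16, 91485238 to 91507441, plus strand, mm10) encodes the chain that carries TYK2. It stood at 24.2, 25.3, 27.5 and 29.7 CPM in the labelled knockdown libraries and at 23.3, 26.4, 23.0 and 22.5 CPM in wildtype. All 4 labelled knockdown libraries lay above 3 of the wildtype ones, and wildtype replicate 2 lay among them. The log2 fold change was 0.16 (SE 0.10, edgeR adjusted p = 0.550). Ifnar2 (ENSMUSG00000022971, chromosome 16, 91372783 to 91405589, plus strand) encodes the chain that carries JAK1, and in mice also a soluble form that a count over the whole gene does not separate. It had 15.5, 20.7, 19.4 and 18.3 CPM in the labelled knockdown libraries and 15.7, 21.1, 16.2 and 20.1 CPM in wildtype. The ranges were nearly the same, and the log2 fold change was 0.01 (SE 0.13, edgeR adjusted p = 0.983), with a 95% interval from 0.824-fold to 1.24-fold. Among the 5 libraries with hepatocyte transcripts the log2 fold change was 0.24 for Ifnar2 and 0.20 for Ifnar1, neither called. Ifnar2, Ifnar1 and Ifngr2 lie within 193 kb of chromosome 16 on the same strand, with Il10rb, the shared chain of the interleukin-10 and interferon-lambda receptors, between Ifnar2 and Ifnar1. Il10rb averaged 110.3 ± 8.08 CPM in the labelled knockdown group and 102 ± 10.9 CPM in wildtype (SD, n = 4 each; edgeR adjusted p = 0.708).

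The chains of the interferon-gamma receptor stood in opposite directions. Ifngr1 (ENSMUSG00000020009, chromosome 10, 19591949 to 19610229, plus strand), which encodes the ligand-binding chain, had 34.2, 30.4, 27.6 and 35.8 CPM in the labelled knockdown libraries and 35.1, 54.2, 35.7 and 46.1 CPM in wildtype. Wildtype replicates 2 and 4 stood above the other 6 libraries, which lay between 27.6 and 35.8 CPM. The log2 fold change was −0.42 (SE 0.15, edgeR adjusted p = 0.290), and −0.28 without wildtype replicate 2. It was −0.12 among the 5 libraries with hepatocyte transcripts and −0.098 with the hepatocyte marker score as a covariate. Ifngr2 (ENSMUSG00000022965, chromosome 16, 91547072 to 91565623, plus strand) encodes the signalling chain that brings JAK2. It had 129, 133, 132 and 136 CPM in the labelled knockdown libraries and 105, 121, 89.4 and 114 CPM in wildtype. All 4 labelled knockdown libraries lay above all 4 wildtype ones and close together, with a coefficient of variation of 2.26% against 12.7% in wildtype. Its log2 fold change was 0.31 with an SE of 0.10 (edgeR adjusted p = 0.260), and 0.34 among the 5 libraries with hepatocyte transcripts.

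The ratio of the 2 chains within a library does not depend on how libraries are scaled. FPKM is a level per length of transcript. The ratio of Ifngr1 to Ifngr2 in FPKM was 0.350, 0.301, 0.277 and 0.347 in the labelled knockdown libraries. In wildtype it was 0.441, 0.594, 0.527 and 0.533. The groups did not overlap, and the ratio of wildtype replicate 1, the wildtype library with hepatocyte transcripts, was also above all 4 labelled knockdown ratios. The mean log2 ratio was −1.66 ± 0.17 in the labelled knockdown group and −0.94 ± 0.18 in wildtype (SD, n = 4 each), a difference of −0.72 or 0.609-fold. An exact permutation test, two-sided, gave p = 0.029, the smallest that 4 libraries against 4 can give, and 0.0714 after adjustment over the 5 ratios tested, which does not pass. For comparison, the ratio of Ifnar1 to Ifnar2 ran from 0.687 to 0.911 in the labelled knockdown libraries and from 0.628 to 0.835 in wildtype, with overlap (exact permutation test, two-sided, p = 0.314, adjusted p = 0.393).

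**Figure D2:**
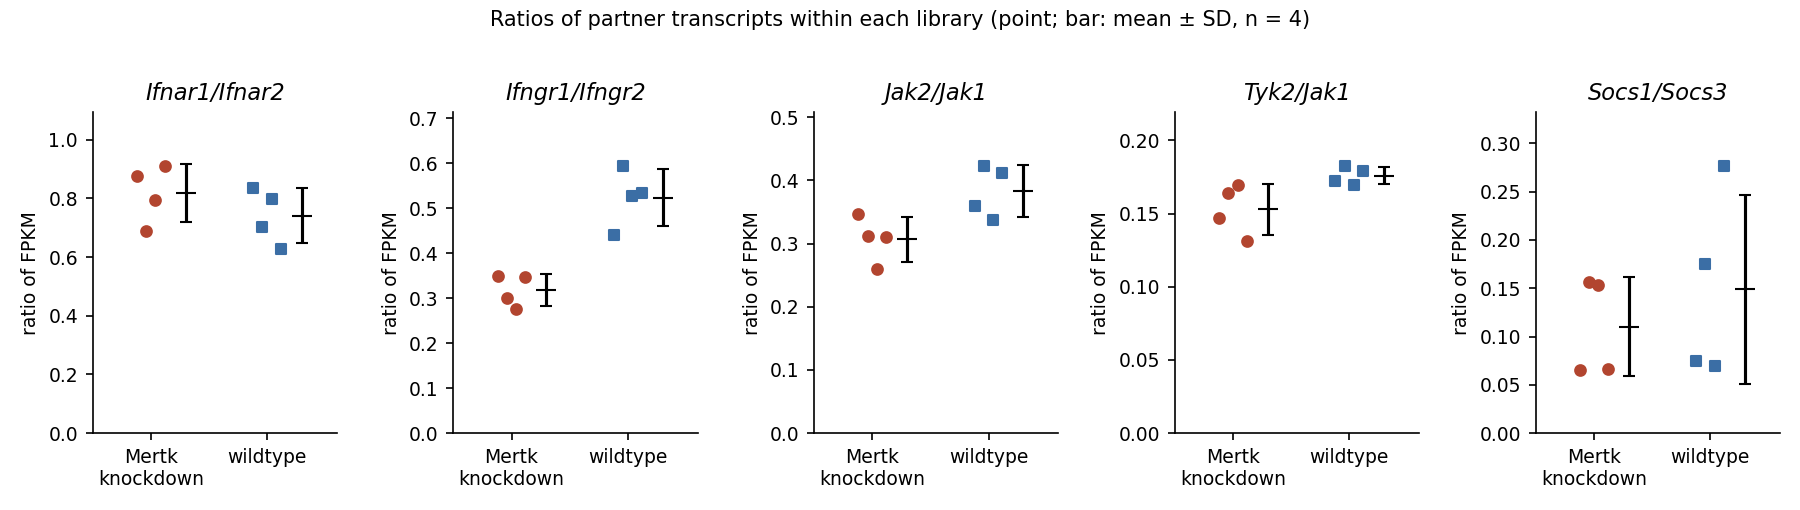
Ratio of the FPKM of partner transcripts in each library, with the mean and SD of 4 libraries, labelled knockdown at left and wildtype at right in each panel. Ifngr1/Ifngr2 was at most 0.350 in the labelled knockdown libraries and at least 0.441 in wildtype, and Ifnar1/Ifnar2 and Socs1/Socs3 overlapped.

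Cell type markers also stood at different levels in these groups. The 10 endothelial markers summed to 776 to 947 CPM in the labelled knockdown libraries and to 645 to 738 CPM in wildtype. Their sums did not overlap between the groups, nor did those of the ventricular cardiomyocyte markers above. Of the 10 log2 fold changes, 2 were below 0 in the endothelial list (median 0.27) and 2 in the ventricular list (median 0.19). Myh6 alone averaged 18092.5 CPM in the labelled knockdown group and 10816.4 CPM in wildtype, so the ventricular sum depends much on that gene. The 15 pan-macrophage markers summed to 259 to 311 CPM in the labelled knockdown libraries and to 303 to 468 CPM in wildtype, with all 15 log2 fold changes below 0 and 0 called. The highest macrophage sums, 447 and 468 CPM, were those of wildtype replicates 2 and 4, which also held the most Ifngr1. Those 2 libraries had the highest fibroblast sums too, 2967 and 1996 CPM, where the 10 markers summed to 1456 to 1837 CPM in the labelled knockdown libraries and to 1316 to 2967 CPM in wildtype. The 8 neutrophil markers summed to 2.21 to 4.89 CPM in the labelled knockdown libraries and to 5.14 to 9.48 CPM in wildtype, without overlap. Ly6g and Mmp8, with 17 and 57 reads over all 8 libraries, did not pass the filter. Of the 6 tested, 0 were called and 5 had a log2 fold change below 0, while Ngp was at 0.94. The 12 lymphocyte markers summed to 2.70 to 10.1 CPM in the labelled knockdown libraries and to 1.96 to 17.6 CPM in wildtype. The 7 atrial markers summed to 788 to 2993 CPM in the labelled knockdown libraries and to 876 to 3313 CPM in wildtype, highest in wildtype replicate 2. In that library the sum was mostly Nppa and Pam, at 2308 and 967 CPM, while Myl7 and Sln stood at 0.603 and 0.151 CPM. Among the atrial markers, Myl7 stood at 197 CPM in labelled knockdown replicate 4 and at 134 and 57.5 CPM in wildtype replicates 3 and 4. It was at 0.603 CPM or less in the other 5. Myl4 and Sln were highest in the same libraries as Myl7. Nppa was highest in wildtype replicate 2, at 2308 CPM, and Bmp10 was at 0 in labelled knockdown replicate 4. These atrial genes were singled out after their values were seen. No gene of these lists was at 0 in all libraries. The part of these markers in the receptor values was not tested, and in bulk heart RNA fewer cells of a type and less RNA per cell cannot be told apart.

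Among the kinases, Jak1 stood higher without passing the test, and Jak2 and Tyk2 differed by less than the spread between libraries. Jak1 (ENSMUSG00000028530, chromosome 4, 101152367 to 101265282, minus strand) serves both types of interferon receptor and the gp130 receptors. It had 139, 149, 119 and 137 CPM in the labelled knockdown libraries and 127, 104, 122 and 107 CPM in wildtype. Labelled knockdown replicate 3 lay inside the wildtype range, and the other 3 lay above it. The log2 fold change was 0.24 (SE 0.11, edgeR adjusted p = 0.384), 0.11 among the 5 libraries with hepatocyte transcripts and 0.081 with the hepatocyte covariate. Its row overlaps that of Raver2 on the opposite strand by 4 bp, and no other of the 9 overlaps another row of the table.

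Jak2 (ENSMUSG00000024789, chromosome 19, 29251828 to 29313080, plus strand), the partner of IFNGR2, had 33.4, 32.4, 21.5 and 29.5 CPM in the labelled knockdown libraries and 31.7, 30.5, 28.7 and 30.6 CPM in wildtype. Labelled knockdown replicate 3 was the low library and the remaining 7 lay close together (log2 fold change −0.06, SE 0.13, edgeR adjusted p = 0.910). Tyk2 (ENSMUSG00000032175, chromosome 9, 21104068 to 21131243, minus strand), the partner of IFNAR1, had 19.4, 23.3, 19.1 and 17.1 CPM in the labelled knockdown libraries and 20.8, 18.0, 19.7 and 18.2 CPM in wildtype. The labelled knockdown group held both the highest and the lowest value (log2 fold change 0.04, SE 0.11, edgeR adjusted p = 0.925). Among the 5 libraries with hepatocyte transcripts the log2 fold change was −0.11 for Jak2 and −0.066 for Tyk2, which changed sign. For 6 of the 7 receptor chains and kinases the 95% interval of the fold change lay inside 1.5-fold in either direction. The exception was Ifngr1, whose interval reached 0.593-fold.

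Relative to Jak1, the other kinases were lower in the labelled knockdown libraries, but not past the adjusted threshold. The Tyk2 to Jak1 ratio of FPKM was 0.147, 0.164, 0.169 and 0.131 in the labelled knockdown libraries and 0.172, 0.183, 0.170 and 0.179 in wildtype. The groups did not overlap, though the nearest values, 0.1693 and 0.1698, almost met (exact permutation test, two-sided, p = 0.029, adjusted p = 0.0714). The Jak2 to Jak1 ratio ran from 0.259 to 0.346 in the labelled knockdown libraries and from 0.337 to 0.423 in wildtype, with a small overlap (exact permutation test, two-sided, p = 0.0571, adjusted p = 0.0952).

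**Figure D3:**
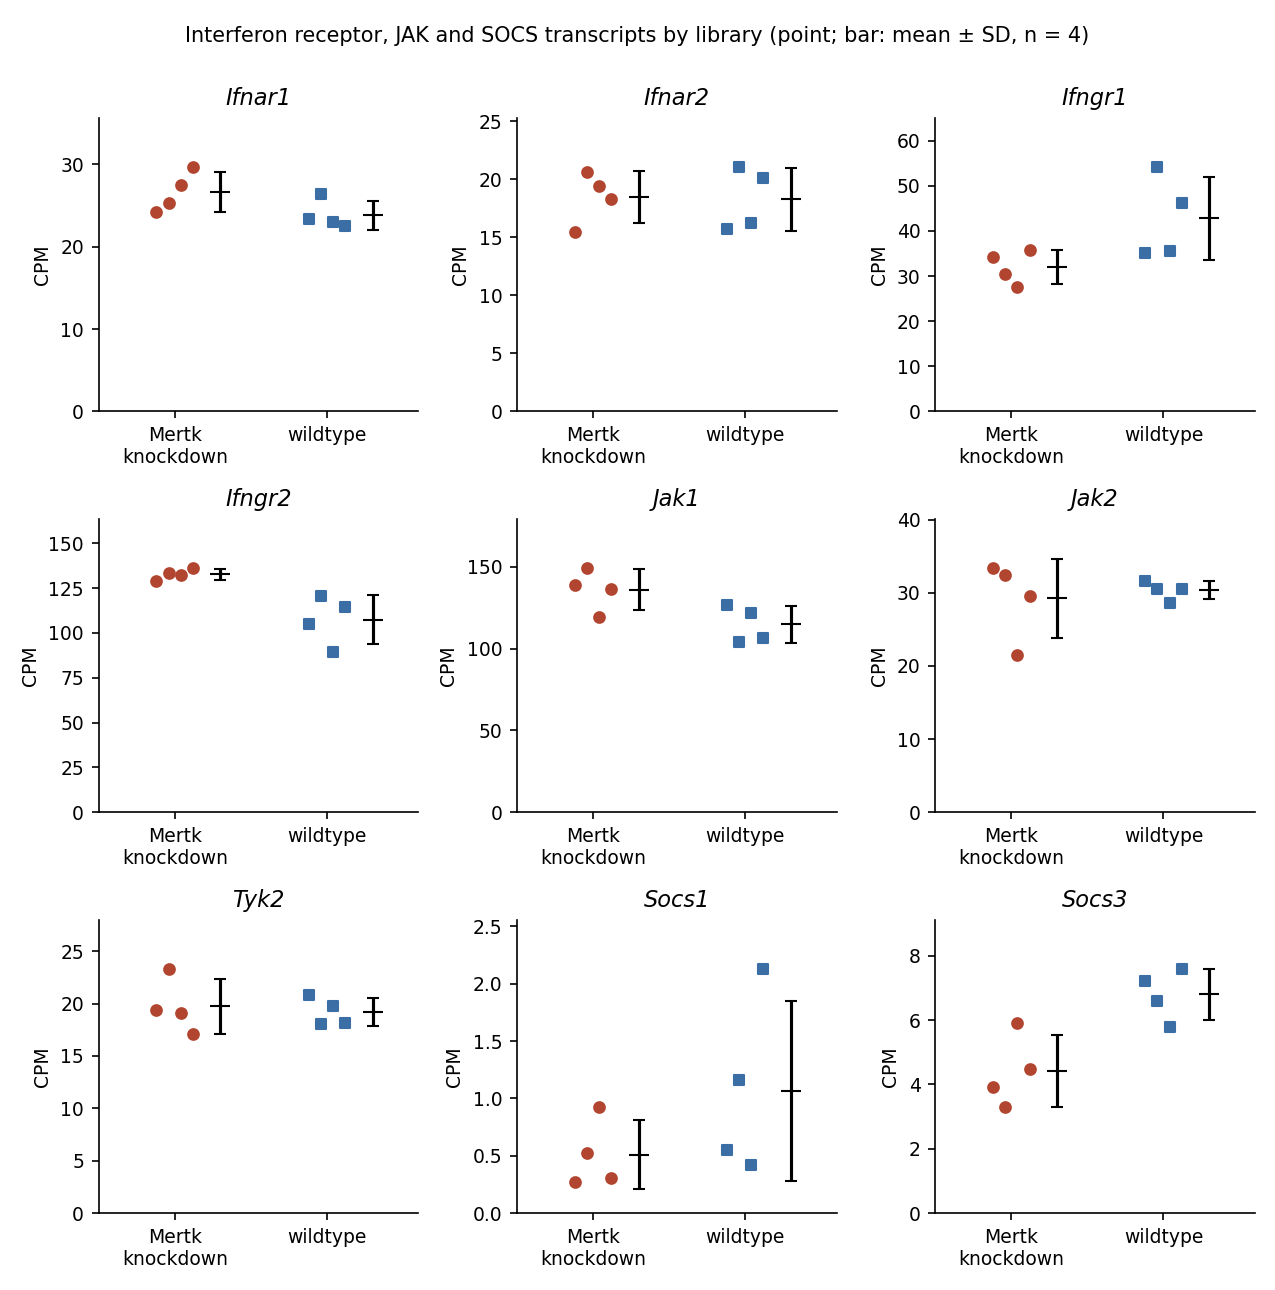
CPM of each of the 9 transcripts by library, labelled Mertk knockdown at left and wildtype at right, with the mean and SD of 4 libraries beside the points and axes from 0. Ifngr2 is the panel without overlap (at least 129 CPM in the labelled knockdown libraries, at most 121 CPM in wildtype), and Socs1 has the widest spread relative to its mean.

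The feedback inhibitors were both on the lower side in the labelled knockdown libraries, and neither passed. Socs3 (ENSMUSG00000053113, chromosome 11, 117966079 to 117970047, minus strand) had the smallest p of the 9. It stood at 3.92, 3.31, 5.92 and 4.49 CPM in the labelled knockdown libraries and at 7.21, 6.61, 5.78 and 7.60 CPM in wildtype. The groups overlapped only through labelled knockdown replicate 3 and wildtype replicate 3. The log2 fold change was −0.62 (SE 0.19), with an unadjusted p of 0.00834 and an adjusted p of 0.206 by edgeR (DESeq2 adjusted p = 0.0626). Among the 5 libraries with hepatocyte transcripts it was −0.70.

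Socs1 (ENSMUSG00000038037, chromosome 16, 10782240 to 10785536, minus strand) was a rare transcript with a wide spread. It was read 18, 35, 59 and 21 times in the labelled knockdown libraries and 35, 77, 24 and 157 times in wildtype. That came to 0.271, 0.529, 0.924 and 0.308 CPM in the labelled knockdown libraries, against 0.552, 1.16, 0.416 and 2.13 CPM in wildtype. Wildtype replicate 4 stood above every other library, also in its exact Poisson 95% interval of 133 to 184 reads, while the groups overlapped in the range of the rest. Such intervals cover counting error only. The log2 fold change was −1.07 (SE 0.59, 95% interval from 0.193-fold to 1.17-fold, edgeR adjusted p = 0.511). It was −0.48 without wildtype replicate 4, −0.11 among the 5 libraries with hepatocyte transcripts and 0.16 with the hepatocyte marker score as a covariate. Coefficients of variation were 59.0% in the labelled knockdown group and 73.3% in wildtype. An interval this wide leaves the size of any difference in Socs1 undetermined. The Socs1 to Socs3 ratio of FPKM ran from 0.0650 to 0.157 in the labelled knockdown libraries and from 0.0699 to 0.277 in wildtype (exact permutation test, two-sided, p = 0.514, adjusted p = 0.514).

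The 250 bases before the transcription start of Socs1 and Socs3 are shown because these genes answer to interferon and gp130 signals, and those of Ifngr1 and Ifngr2 because these chains stood apart. The sequences are RefSeq's on GRCm38.p6, 5′ to 3′ on the strand of the gene, with starts that can differ from the ends of the deposited rows, at chr16:10785537-10785786 for Socs1, chr11:117969367-117969616 for Socs3, chr10:19591699-19591948 for Ifngr1 and chr16:91546809-91547058 for Ifngr2. Capitals mark matches to 2 patterns searched on both strands. The first is GAAA, any 2 bases and GAAA again, the core of the interferon-stimulated response element, and the second is TTCNNNGAA, the gamma-activated site bound by STAT dimers.
Socs1: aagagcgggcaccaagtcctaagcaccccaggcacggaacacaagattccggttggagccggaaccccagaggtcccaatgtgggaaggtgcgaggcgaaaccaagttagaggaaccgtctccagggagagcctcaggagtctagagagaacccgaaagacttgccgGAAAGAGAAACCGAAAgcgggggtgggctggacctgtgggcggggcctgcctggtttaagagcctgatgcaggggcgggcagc
Socs3: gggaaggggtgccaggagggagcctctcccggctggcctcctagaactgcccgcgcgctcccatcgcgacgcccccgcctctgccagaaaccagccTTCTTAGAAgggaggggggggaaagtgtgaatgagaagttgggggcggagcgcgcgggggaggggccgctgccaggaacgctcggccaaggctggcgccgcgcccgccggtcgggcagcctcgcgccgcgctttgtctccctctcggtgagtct
Ifngr1: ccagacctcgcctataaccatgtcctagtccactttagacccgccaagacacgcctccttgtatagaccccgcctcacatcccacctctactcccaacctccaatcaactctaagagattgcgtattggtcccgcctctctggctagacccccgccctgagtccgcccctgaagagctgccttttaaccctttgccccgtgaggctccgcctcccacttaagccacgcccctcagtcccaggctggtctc
Ifngr2: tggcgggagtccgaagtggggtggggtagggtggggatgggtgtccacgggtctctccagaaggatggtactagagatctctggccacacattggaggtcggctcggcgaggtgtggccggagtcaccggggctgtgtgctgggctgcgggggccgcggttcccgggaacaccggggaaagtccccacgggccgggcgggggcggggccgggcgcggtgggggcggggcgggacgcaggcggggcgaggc
Socs1 held 2 overlapping matches to the first pattern, between 83 and 68 bases before the RefSeq start. Socs3 held 1 match to the second, 154 to 146 bases before its RefSeq start. The deposited Socs3 row begins further upstream, at 117970047 on the minus strand. By that row the whole Socs3 window, with its match, lies inside the gene. Of 32851 RefSeq windows of the same length, 2.98% held the first pattern and 7.02% the second. The windows of Ifngr1 and Ifngr2 held neither. Of the other 5 genes, Ifnar2 held 1 match to the second pattern. A match says only that the letters are present in the window.

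Per length, the 9 transcripts ranked in the order Ifngr2, Jak1, Ifngr1, Jak2, Ifnar2, Ifnar1, Tyk2, Socs3 and Socs1. Ifngr2 ran from 19.99 to 33.7 FPKM over the 8 libraries and Jak1 from 13.4 to 18.8 FPKM, so these ranges did not overlap. Ifngr1 ran from 9.05 to 17.7 FPKM and was below Jak1 in 6 of 8 libraries; the exceptions were wildtype replicates 2 and 4. Jak2, Ifnar2 and Ifnar1 lay close together, at means of 5.37, 5.02 and 3.87 FPKM with overlapping ranges. Jak2 exceeded Ifnar2 in 6 of 8 libraries, and Ifnar2 exceeded Ifnar1 in 8 of 8. Tyk2 averaged 2.57 FPKM, below Ifnar1 in all 8 libraries, and Socs3 1.76 FPKM. Socs1 averaged 0.246 FPKM and its range did not overlap that of Socs3. Among all tested genes, 95.2% had a mean FPKM below that of Ifngr2, 58.9% below that of Tyk2 and 18.7% below that of Socs1.

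**Figure D4:**
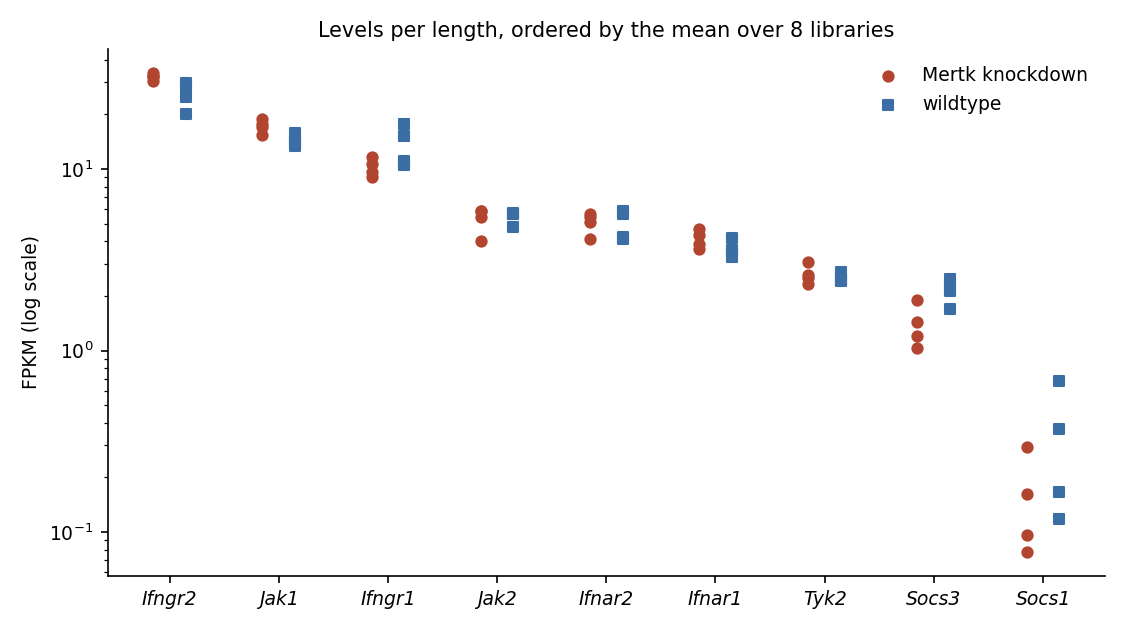
FPKM of the 9 transcripts in each library on a log axis, ordered by the mean over all 8 libraries, labelled knockdown at left of wildtype for each gene. Ifngr2 reached 33.7 FPKM, and Socs1 stayed below 0.7 FPKM in every library.

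Around these 9 transcripts, 93 tested genes of interferon and JAK-STAT signalling were read as lists, chosen with earlier results of these data known. Of them 11 fell and 0 rose in the labelled knockdown libraries by edgeR (background 0.371% lower and 0.275% higher), and for 72 of the 93 the log2 fold change was negative, with a median of −0.61. In the refits the genes called were counted in either direction, without a split into lower and higher. That count was 6, 6, 5 and 6 without labelled knockdown replicate 1, 2, 3 or 4. It was 16, 8, 12 and 6 without wildtype replicate 1, 2, 3 or 4. It was 1 among the 5 libraries with hepatocyte transcripts, where 42 genes were called in all.

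Interferon transcripts themselves were hardly read. Of 21 interferon genes listed, 3 had a row and 0 passed the filter. Ifng, the ligand of the IFNGR chains, had 16 reads over all 8 libraries together. Type III and interleukin-10 family receptor chains had 0 of 5 called, with Ifnlr1, the lambda receptor chain, at 0.57 (edgeR adjusted p = 0.291) and Il10ra at −0.24 (adjusted p = 0.669).

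Among the other brakes on the pathway, 1 of 11 fell. Usp18, a protease that binds IFNAR2 and damps type I signalling, had 2.71, 3.44, 5.67 and 5.00 CPM in the labelled knockdown libraries and 9.94, 18.4, 11.2 and 19.3 CPM in wildtype (log2 fold change −1.81, SE 0.29, adjusted p = 0.0330 by edgeR). The remaining SOCS genes and Jak3 had 0 of 7 called (median −0.02), with Socs2 at −0.68 (edgeR adjusted p = 0.313) and Jak3 at −0.26 (adjusted p = 0.501).

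The list of gp130 cytokines and receptors had 1 of 10 called. It also held Csf3r, which was counted among the neutrophil markers too. Osmr, the oncostatin M receptor chain that pairs with gp130, fell, with 23.5, 21.3, 17.8 and 19.0 CPM in the labelled knockdown libraries and 32.3, 42.9, 32.0 and 34.9 CPM in wildtype. No labelled knockdown library reached the lowest wildtype one (log2 fold change −0.80, SE 0.12, edgeR adjusted p = 0.0251). Il6st, which encodes gp130 itself, averaged 198 ± 11.3 CPM in the labelled knockdown group and 187 ± 14.8 CPM in wildtype (SD, n = 4 each; edgeR adjusted p = 0.798). Receptors of other JAK2-linked cytokines had 0 of 7 called, led by Csf2ra at −0.43 (edgeR adjusted p = 0.272) and Csf2rb at −0.61 (adjusted p = 0.348). Of the 10 STAT3 targets and acute phase genes 0 were called by edgeR, and 7 of the 10 log2 fold changes were below 0. Il4ra was at −0.95 (edgeR adjusted p = 0.0542, DESeq2 adjusted p = 1.88e-04) and Icam1 at −0.40 (edgeR adjusted p = 0.274). By DESeq2, Il4ra thus passed.

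Downstream of the receptors, edgeR called 8 of 20 type I readouts and 1 of 16 interferon-gamma readouts lower. All 36 stood below 0 (medians −1.42 and −1.78). At an unadjusted p under 0.05 by edgeR there were 19 of 20 and 15 of 16, against 12.4% of all tested genes. The counts called after adjustment therefore do not show a larger fall in the type I list. By DESeq2, interferon-gamma readouts such as Igtp and Iigp1 also passed (adjusted p = 3.07e-04 and 3.15e-04). The called type I readouts were Irf7, Oasl1, Rsad2, Ifit3, Oas3, Ifit2, Bst2 and Usp18, the last counted among the brakes too. Their log2 fold changes ran from −2.68 for Oas3, which makes the messenger that activates RNase L, to −0.88 for Rsad2, the antiviral enzyme viperin. The called interferon-gamma readout, Psmb8, an immunoproteasome subunit, averaged 10.5 ± 2.54 CPM in the labelled knockdown group and 26.7 ± 4.01 CPM in wildtype (SD, n = 4 each; log2 fold change −1.35, SE 0.18, edgeR adjusted p = 0.0127).

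Within wildtype the libraries were uneven. The interferon-gamma readouts summed to 231, 245, 307 and 394 CPM in labelled knockdown replicates 1 to 4, and to 578, 2508, 509 and 3242 CPM in wildtype replicates 1 to 4. Wildtype replicates 2 and 4 thus held by far the most. The type I readouts summed to 141, 143, 175 and 174 CPM in labelled knockdown replicates 1 to 4. In wildtype replicates 1 to 4 they summed to 313, 616, 365 and 635.5 CPM, so they were also highest in replicates 2 and 4. The same 2 wildtype libraries held the most Socs1 and the most Ifngr1. Socs3 did not follow that split, since wildtype replicate 1 held more than wildtype replicate 2. Jak1 was lowest in wildtype replicates 2 and 4.

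**Figure D5:**
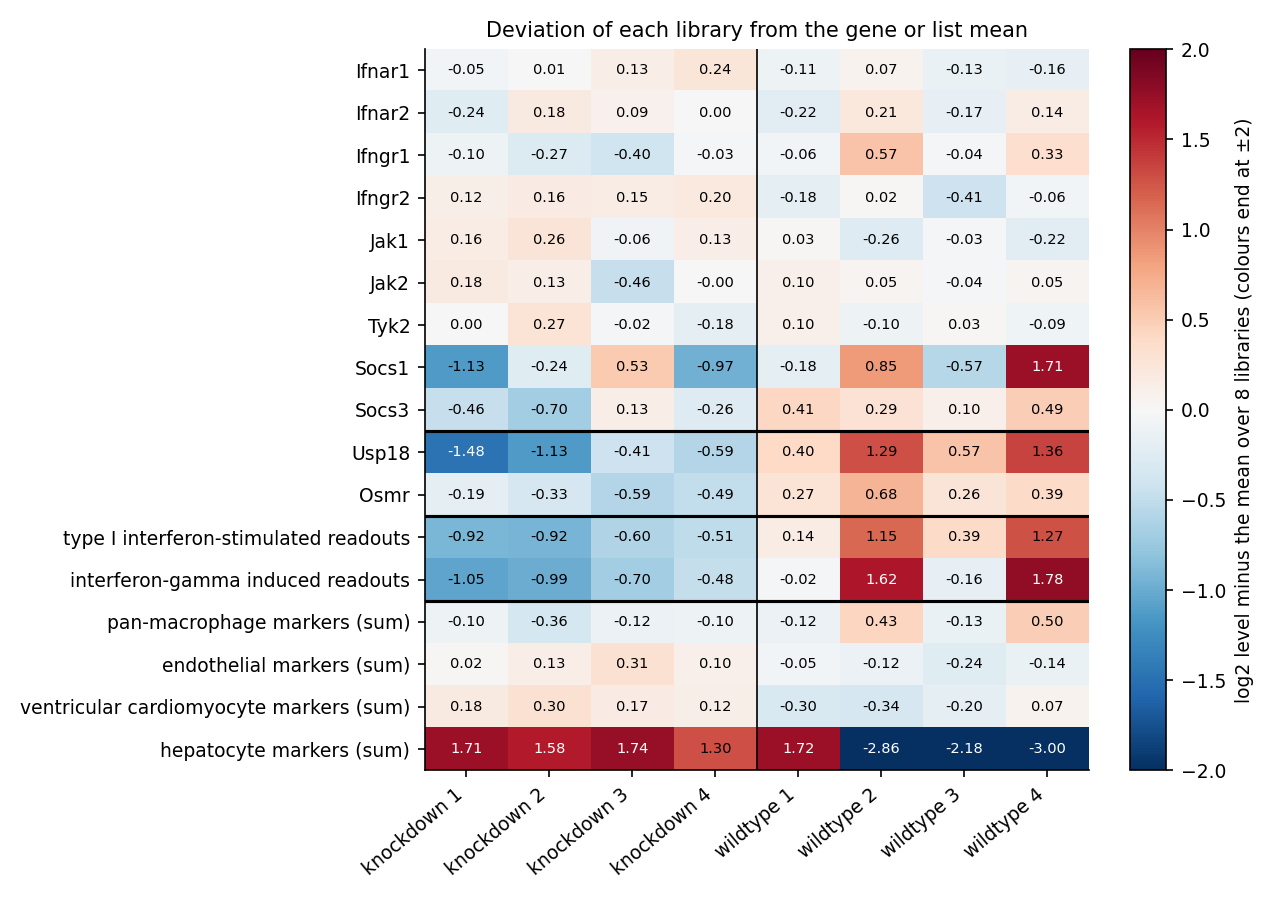
Log2 level of each library minus the mean over the 8 libraries, for the 9 transcripts (top block, log2 CPM), the called genes Usp18 and Osmr (second block), the mean log2 CPM of the readout lists (next block) and summed cell type markers (bottom block). Wildtype replicates 2 and 4 stand out at 1.62 and 1.78 for the interferon-gamma readouts, and at 1.15 and 1.27 for the type I readouts. The type I receptor chains and Tyk2 stay within 0.27 of their means.

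Over the 8 libraries, the genes whose centred log2 CPM lay nearest to that of Socs1 were Apobr, Tapbpl and Hk3, at a root mean square difference of 0.42, 0.45 and 0.46. A flat profile would have been 0.90 away from Socs1. Nearest to Socs3 were Hfe, Tcap and Spata24, at 0.15, 0.15 and 0.16, with 0.40 for a flat profile. Of these 6, out of 12410 genes compared, Hfe was called (log2 fold change −0.61, edgeR adjusted p = 0.0466). This likeness is a description of 8 libraries that share their groups.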

How the data were processed

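Poly(A) RNA of hearts was sequenced as paired ends from dUTP-marked, strand-specific libraries, per the labels' protocols. The authors deposited whole-number read counts per gene and FPKM for each library, per the file headers. FPKM is a level per length of transcript and depth of library. Build mm10 and the tools edgeR, DESeq2, StringTie 2.1.6, HISAT2 2.2.1 and cutadapt 1.9 come from the submitters' processing notes, which give them no roles. The sources used here do not say whether counting used strand.

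Counts were tested over all genes with edgeR 4.0.16 in R 4.3.3 (filterByExpr, TMM, robust quasi-likelihood F test, two-sided, Benjamini-Hochberg, threshold 0.05). The SE was the log2 fold change divided by the square root of F. DESeq2 1.42.0 and limma 3.58.1 on log2(FPKM + 1) and log2(FPKM + 0.1) served as alternatives, with other scalings, no filter, a replicate block, a hepatocyte covariate and single libraries left out. Ratios of FPKM were tested by exact permutation of 4 libraries against 4. The script was tested on simulated counts. Replicates were not duplicates: chi-square per degree of freedom within groups was 37.9 to 199. Upper quartile scaling moved the median of all genes by less than 0.1 on the log2 scale.

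The members, lists and alternatives were chosen with earlier results of these data known. The genes named are the 9 members, Mertk, each list's called genes or else its 2 with the smallest p, and for Socs1 and Socs3 the 3 genes nearest in profile among those with at least 1 CPM. Il10rb, Il6st, Ifng, the DESeq2 examples and the single cell type markers named were added after their values were seen. Some listed genes are not reported here.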

Additional observations from a re-analysis of the deposited data

How the results depend on the processing

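The count of called members was 0 of 9 in all 18 alternatives, with adjusted p between 0.0626 and 0.989 for the members; Socs1 was too low for the FPKM filter and has 16. Ifnar1, Ifngr1, Ifngr2, Jak1 and Socs3 kept the sign of their log2 fold change in each of them. Some members near 0 changed sign. Ifnar2 ran from −0.053 to 0.095, Jak2 from −0.13 to 0.067 and Tyk2 from −0.048 to 0.11 with 1 library left out, and Tyk2 was −0.076 with the hepatocyte covariate and −0.066 among the 5 libraries with hepatocyte transcripts. Socs1 was 0.16 with the covariate; the cause was not tested. The Socs1 to Socs3 log2 ratio ran from −0.60 to 0.058 and the Ifngr1 to Ifngr2 one from −0.80 to −0.65 with 1 library left out, where 4 against 3 cannot give p under 0.0571.

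All genes called and other pathway genes called, 115 and 11 as reported, were 668 and 32 with DESeq2, 75 and 5 with limma on log2(FPKM + 1), and 21 and 1 with the same unfiltered. They were 15 and 1 with the hepatocyte covariate and 42 and 1 among the 5 libraries. With 1 library left out they ran from 44 to 265 and from 5 to 16. The replicate block gave 24 and 5 and called 0 members. Deviations of same-numbered libraries were weakly correlated at most (0.06, 6.30e-05, −0.01 and 0.18 for numbers 1 to 4). Between unlike numbers the correlations ran from −0.15 to 0.08, so the value for number 4 lay above all of those. The numbers were not taken as pairs, though values this low do not settle whether they are. Blocked by number, exact sign flips, which cannot give p under 0.125, gave an adjusted p of 0.208 for Ifngr1 to Ifngr2 at the same difference of −0.72. Depth limits Socs1 most, with 18 to 157 reads per library.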
